A study of Mus musculus with 6 samples.

Results

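Collagen chain genes were examined in wound tissues of db/db mice, a diabetic line that lacks a working leptin receptor. The members were all genes of the deposited table annotated as protein-coding whose symbol is Col, a number, a and a number. There were 44 of them among 33184 gene IDs, and no measured value was used to choose them. They were 11 chains of fibrillar collagens, 6 chains of the type IV basement membrane network, 9 chains of FACITs (fibril-associated collagens with interrupted triple helices) and 18 others. The other group held 6 type VI chains, the transmembrane collagens Col13a1, Col17a1, Col23a1 and Col25a1, the anchoring fibril chain Col7a1, the network chains Col8a1, Col8a2 and Col10a1, the multiplexins Col15a1 and Col18a1, and Col26a1 and Col28a1.

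All 6 samples came from db/db mice on the BLKS background with a round skin wound of 6 mm through epidermis and dermis. At dpi1, 1 day after injury, the skin beside the wound received NC siRNA or SFRP2 siRNA, and wound tissues were frozen at dpi4. The sample titles carry the tag D3. There were 3 RNA-seq libraries labelled NC and 3 labelled SFRP2-siRNA, each taken as 1 animal. Sex, age and whether an animal carried several wounds were not given in the sources used here, so p-values measure only the spread between these 6 libraries. A wound biopsy mixes cell types, and more cells of a type cannot be told apart from more RNA per cell.

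Collagens are triple helices of chains in which glycine recurs at regular steps. Fibrillar collagens form the rope-like fibrils of the dermis, with type I and type III as the bulk and type V in the fibril core. FACITs sit on the surface of these fibrils, type VI makes beaded microfibrils close to the cells, and type IV makes the sheet-like network under epithelium and around vessels. In a healing wound, granulation tissue fibroblasts lay down type III and type I collagen, and chains are hydroxylated, folded and trimmed before they assemble.

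The siRNA target was the check of the labels. The antisense strands that the study lists are shown because they are the treatment, with the seed (bases 2 to 8) in capitals and the overhangs left off. The treated samples carry the titles siRNA-1 to siRNA-3, and whether each received the strand of that number is not given in the sources used here.
SiRNA-1: uUCAUGACcagcggaaucc
SiRNA-2: uUGUCGUCcucauucuugg
SiRNA-3: aUCUUGGUgucucuguuga
NC: aCGUGACAcguucggagaa
The complement of each SFRP2 strand was found in transcripts of Sfrp2 and in none of 224 transcripts of the collagen chain genes, and that of the NC strand was found in none of the 141767 transcripts searched. Sfrp2, which encodes a secreted binder of wnt proteins, had 11.6, 40.6 and 14.1 FPKM (fragments per kilobase of gene, scaled to library depth) in NC 1, 2 and 3. The level was 50.6, 54.6 and 55.2 FPKM in SFRP2-siRNA 1, 2 and 3. The transcript was thus highest in the libraries labelled as silenced, with NC 2 nearest to them, and for RNA this goes against the label. By immunofluorescence at dpi3 the study reports less SFRP2 protein in diabetic wounds given SFRP2 siRNA. The RNA is from tissue frozen at dpi4, and protein was not measured in these libraries. Because of the RNA values, directions are stated for the libraries labelled SFRP2-siRNA, not for a loss of Sfrp2.

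Collagen transcripts took up more of the libraries labelled SFRP2-siRNA. By Masson staining the study reports less collagen deposition in diabetic wounds given SFRP2 siRNA. That is a measure of tissue, not of RNA, and its day is not given in the text used here. The 44 genes summed to 1250.2, 2450.2 and 1407 FPKM in NC 1, 2 and 3, which was 0.283%, 0.676% and 0.382% of all FPKM in those libraries. They summed to 2813, 2655 and 2541 FPKM in SFRP2-siRNA 1, 2 and 3, or 0.785%, 0.709% and 0.704%. The mean sums were 1702 ± 652 and 2670 ± 136 FPKM (SD, n = 3 each), a ratio of 1.57, with an exact permutation p of 0.1. This is the smallest p that 3 against 3 libraries allow, so no single value here could pass 0.05 by that test. The 3 libraries labelled SFRP2-siRNA lay close together, while NC 2 held almost as much collagen as they did and NC 1 and NC 3 about the same low amount. With median-of-ratios scaling, which sets the typical gene equal between libraries, the ratio of the sums was 1.41 and NC 2, at 2469.6 FPKM, lay above SFRP2-siRNA 3, at 2319.7 FPKM.

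**Figure D1:**
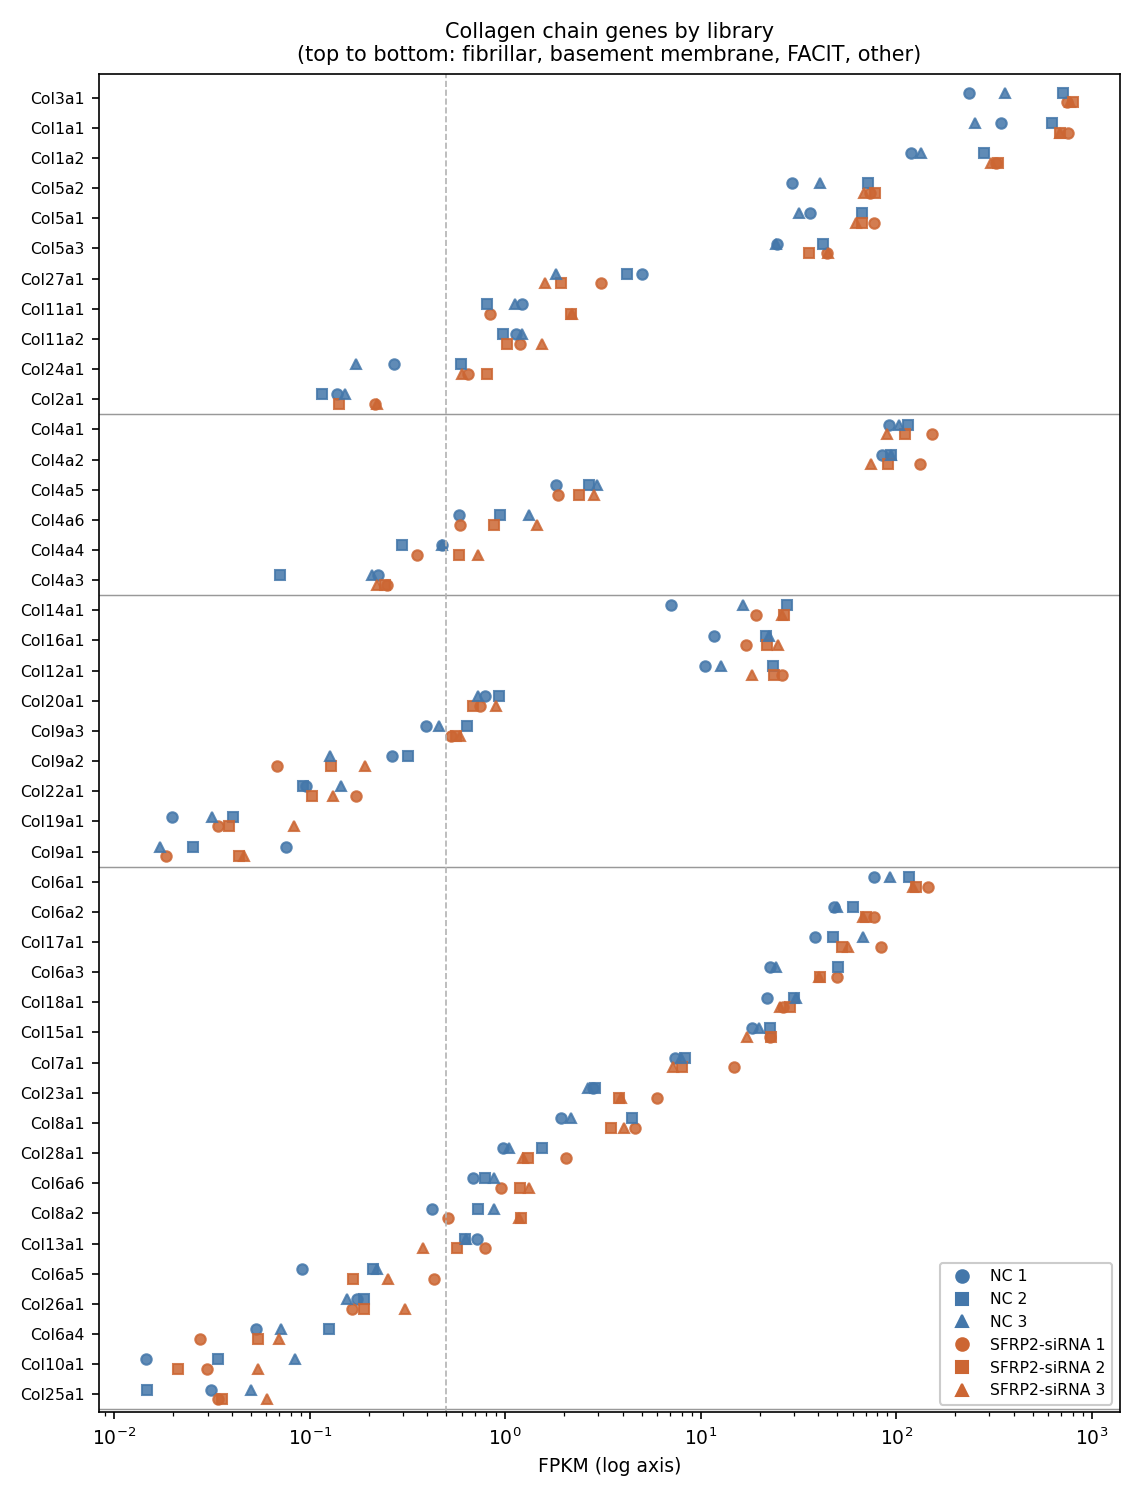
FPKM of each of the 44 collagen chain genes in the 6 libraries on a log axis, with classes separated by lines and the filter of 0.5 FPKM on the mean dashed. Col3a1, Col1a1 and Col1a2 were the 3 highest genes in every library, and NC 2 lay next to the libraries labelled SFRP2-siRNA in most fibrillar genes.

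No collagen gene passed the study's thresholds, an absolute log2 fold change above 1 with an adjusted p under 0.05, in the limma fits used here. The study applied these thresholds with DESeq2, which was not run here, and reports genes called in both directions in wound tissues at dpi4. The counts of 0 below come from another method and do not show what DESeq2 would give. Of the 32 members with a mean of at least 0.5 FPKM, which were tested, 0 were called by limma, 0 also by limma voom on reads recovered from the FPKM values, and over all 16005 genes tested the share was 0%. The smallest adjusted limma p among them was 0.518, and their log2 fold changes, on the log2(FPKM + 1) scale, which understates low genes, ran from -0.50 to 0.98. At an unadjusted limma p under 0.05, 5 members had higher values under the SFRP2-siRNA label, against 6.72% of all genes, and 0 were lower, against 2.86%. The 5 were Col1a1, Col1a2, Col3a1, Col6a2 and Col23a1. This count was 14 without NC 2, 1 without NC 1, 1 without NC 3, 1 without SFRP2-siRNA 2, 3 without SFRP2-siRNA 3 and 1, Col1a2, with median-of-ratios scaling.

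All 3 values of a group lay apart from those of the other for 8 of the 32 members, each higher in the libraries labelled SFRP2-siRNA, against 13.9% of all genes tested. None was lower without overlap, against 3.92%. The 8 were Col1a1, Col1a2, Col3a1 and Col24a1 of the fibrillar class and Col6a1, Col6a2, Col6a6 and Col23a1 of the others. Col24a1, with a mean of 0.52 FPKM, entered the test only through the group in which it was higher, as did Col9a3 with 0.53 FPKM. With median-of-ratios scaling the count was 3, Col6a2, Col6a6 and Col23a1, against 5.26% of all genes. Without NC 2 it was 17 of the 33 then tested, against 25.9% of all genes, since Col5a1, Col5a2, Col5a3, Col6a3, Col8a1, Col9a3, Col12a1, Col14a1 and Col28a1 were then apart too. Of the 12 members below the filter, 0 had groups apart.

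The median log2 fold change of the 32 members was 0.30, and that of all genes tested was 0.13. The value was 0.58 for the 10 fibrillar genes tested, 0.45 for the 4 type VI genes, 0.22 for the 5 FACIT genes and 0.05 for the 4 type IV genes. Without NC 1 it was 0.18 for all members, 0.01 for FACIT genes and -0.05 for type IV genes, beside 0.07 for all genes tested. Fibrillar and type VI medians stayed above that of all genes with both other scalings, by 0.42 and 0.29 with median-of-ratios scaling. The type IV median was below that of all genes with all 3 scalings, and turned to -0.07 with median-of-ratios scaling.

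**Figure D2:**
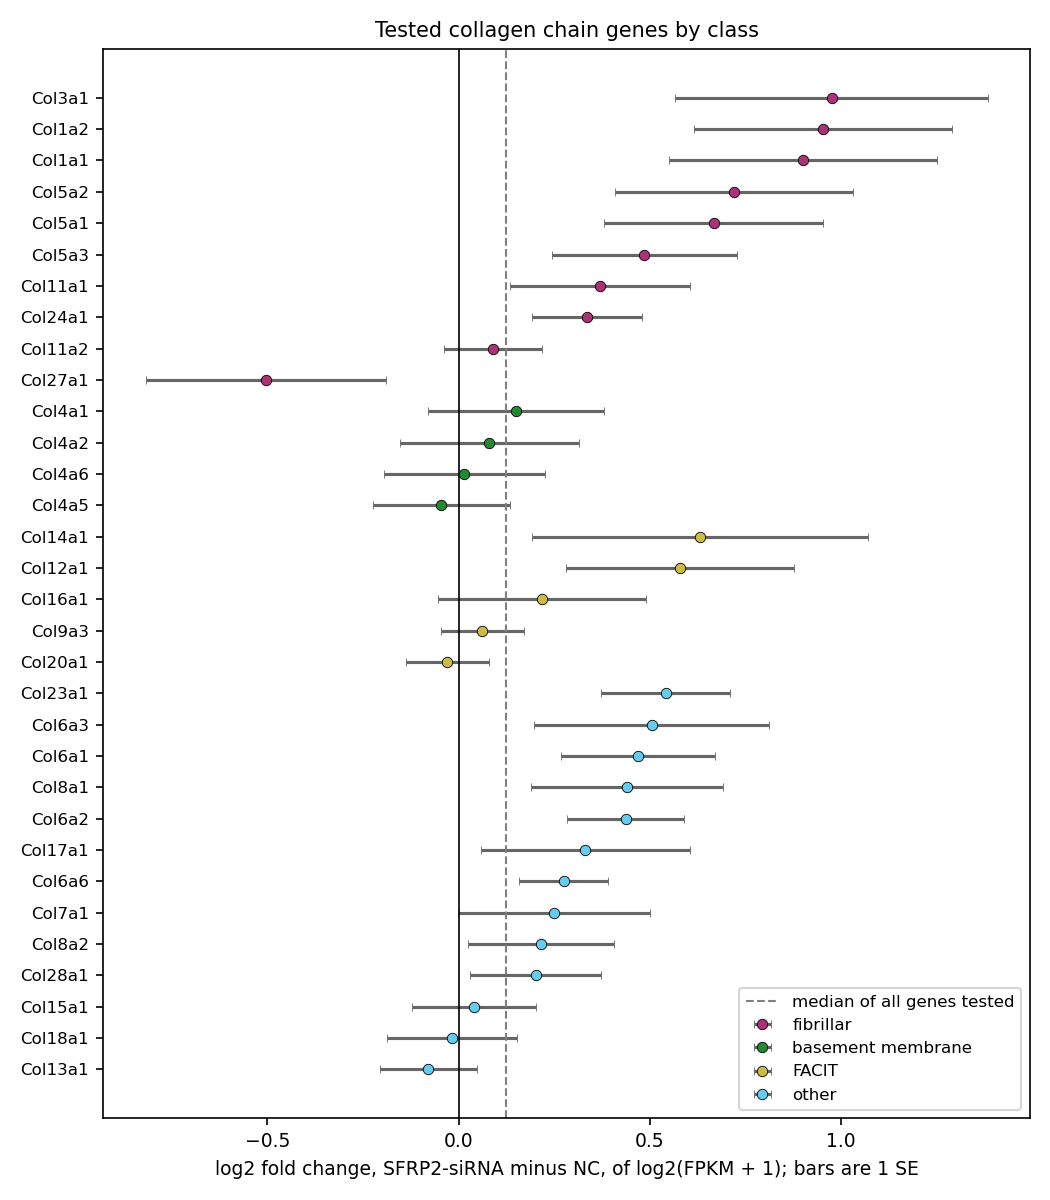
Log2 fold change (SFRP2-siRNA minus NC, on the log2(FPKM + 1) scale) of the 32 tested members by class, with bars of 1 SE and the median of all genes tested dashed. The 3 top values were those of Col3a1, Col1a2 and Col1a1, at 0.98, 0.95 and 0.90, and Col27a1 was lowest at -0.50.

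Fibrillar collagens made up 844 of the 967 FPKM by which the mean sums differed. Their summed FPKM was 798, 1815 and 849.5 in NC 1, 2 and 3 and 2026, 2015 and 1952 in SFRP2-siRNA 1, 2 and 3, a ratio of means of 1.73 with an exact permutation p of 0.1. With median-of-ratios scaling the ratio was 1.56 and NC 2 lay within the other group. Col3a1, the single chain of type III collagen, had the highest mean of all members. It had 235, 718 and 360.2 FPKM in NC and 744, 807 and 773 FPKM in SFRP2-siRNA, a log2 fold change of 0.98 (SE 0.41, unadjusted limma p 0.0494). Every SFRP2-siRNA library exceeded every NC library, and NC 2 lay close below the lowest of them. Without NC 1 the log2 fold change was 0.61.

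Col1a1, the more abundant chain of type I collagen, had 345.5, 627 and 254 FPKM in NC and 755, 691 and 689.6 FPKM in SFRP2-siRNA. Its log2 fold change was 0.90 (SE 0.35, unadjusted limma p 0.0381). Col1a2, its partner chain, had 119, 282 and 134 FPKM against 326, 331 and 307 FPKM, with a fitted log2 fold change of 0.95 (SE 0.34, unadjusted limma p 0.0266). In both genes the groups were apart and NC 1 and NC 3 stood at less than the level of NC 2. Together Col1a1, Col1a2 and Col3a1 made up 56.0%, 66.4% and 53.2% of all collagen FPKM in NC 1, 2 and 3 and 64.9%, 68.9% and 69.6% in SFRP2-siRNA 1, 2 and 3. These shares do not depend on how a library is scaled, and they overlapped through NC 2.

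The type V chains start and limit fibril growth. Col5a1 had 36.3, 67.0 and 32.0 FPKM in NC and 77.2, 66.6 and 62.3 FPKM in SFRP2-siRNA, a log2 fold change of 0.67 (SE 0.29). Col5a2 had 29.4, 71.4 and 40.6 FPKM against 73.3, 78.3 and 68.7 FPKM, and the log2 fold change was 0.72 (SE 0.31). In both genes NC 2 fell among the SFRP2-siRNA libraries, and the unadjusted limma p-values were 0.0538 and 0.0547. Col5a3, a further type V chain, had means of 30.3 ± 10.3 and 41.6 ± 4.92 FPKM (SD, n = 3 each).

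The remaining fibrillar chains were scarce. Col11a1 and Col11a2, chains of the type XI collagen best known from cartilage, had log2 fold changes of 0.37 and 0.09, with values from 0.81 to 2.19 FPKM and from 0.98 to 1.54 FPKM. The second of these turned to -0.00086 with median-of-ratios scaling. Col24a1 had 0.27, 0.60 and 0.17 FPKM in NC and 0.65, 0.81 and 0.60 FPKM in SFRP2-siRNA, on 60 to 278 reads. Col27a1 went the other way, with 5.01, 4.21 and 1.82 FPKM in NC and 3.07, 1.93 and 1.59 FPKM in SFRP2-siRNA, and its groups overlapped. Its log2 fold change was -0.50 (SE 0.31), the lowest of all members tested. Col2a1, the cartilage fibril chain, did not exceed 0.22 FPKM, and no gene of a cartilage marker list with 6 genes reached the filter.

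Promoter letters are shown for 3 higher members whose windows held no annotated exon, because their base composition differs widely although all 3 had higher means in the libraries labelled SFRP2-siRNA. Each is the 150 bases before the start of the gene in RefSeq (GRCm38.p6, plus strand), with TATAAA and GGGCGG on either strand in capitals. They lie at chr1:45311388-45311537, chr2:27886275-27886424 and chr11:51289770-51289919.
Col3a1: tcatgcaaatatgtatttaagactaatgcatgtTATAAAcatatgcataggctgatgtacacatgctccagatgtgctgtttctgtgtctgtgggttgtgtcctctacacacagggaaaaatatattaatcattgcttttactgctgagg
Col5a1: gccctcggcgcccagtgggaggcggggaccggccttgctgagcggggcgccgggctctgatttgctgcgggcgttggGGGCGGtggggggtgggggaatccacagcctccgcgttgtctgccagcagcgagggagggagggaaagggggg
Col23a1: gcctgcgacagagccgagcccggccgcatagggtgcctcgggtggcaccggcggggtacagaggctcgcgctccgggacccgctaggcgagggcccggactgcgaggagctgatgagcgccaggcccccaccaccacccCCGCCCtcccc
Over the 250 bases before the start, G and C made up 35.2% in Col3a1, 76.4% in Col5a1 and 66% in Col23a1. Of the 44 genes 35 had a RefSeq window, 38 windows in all. GGGCGG was found on either strand in 57.9% of these windows and in 32.7% of 32851 windows of all genes. For CCAAT the shares were 34.2% and 33.8%, and for TATAAA 13.2% and 12.4%. These are counts of letters, and binding was not measured.

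The groups overlapped in all 6 type IV chains. Col4a1 and Col4a2, the ubiquitous pair of basement membranes, were the fifth and sixth most abundant members. Col4a1 had 92.4, 115 and 104 FPKM in NC and 152, 110.4 and 89.96 FPKM in SFRP2-siRNA, a log2 fold change of 0.15 (SE 0.23). Col4a2 had 84.8, 94.3 and 93.7 FPKM against 132, 90.5 and 74.0 FPKM, which gave a log2 fold change of 0.08 (SE 0.23). In both genes SFRP2-siRNA 1 was highest and SFRP2-siRNA 3 lowest of all 6 libraries, so the groups overlapped. Without SFRP2-siRNA 1 the log2 fold changes were -0.05 and -0.15, and with median-of-ratios scaling -0.01 and -0.08, so no direction is given for either.

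The other type IV chains are restricted to certain basement membranes. Col4a5 had 1.81, 2.68 and 2.96 FPKM in NC and 1.86, 2.40 and 2.84 FPKM in SFRP2-siRNA, and Col4a6 ran from 0.58 to 1.46 FPKM. Col4a4 and Col4a3, best known from the kidney glomerulus, stayed below the filter, at up to 0.72 and 0.25 FPKM. Each of the pairs Col4a1 and Col4a2, Col4a3 and Col4a4, and Col4a5 and Col4a6 lies head to head in the annotation. The partners of a pair had levels of the same order, with means of 111 and 94.9 FPKM, 0.20 and 0.48 FPKM, and 2.42 and 0.96 FPKM. The ratio of summed fibrillar to summed type IV FPKM, chosen after the values were seen and given without a test, was 4.43, 8.49 and 4.202 in NC 1, 2 and 3 and 7.04, 9.83 and 11.5 in SFRP2-siRNA 1, 2 and 3. It does not depend on library scaling, and NC 2 fell among the SFRP2-siRNA libraries.

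Among FACITs, 3 genes were well expressed. Col12a1, a fibril surface collagen of dense tissue, had 10.5, 23.5 and 12.7 FPKM in NC and 26.0, 23.7 and 18.3 FPKM in SFRP2-siRNA, a log2 fold change of 0.58 (SE 0.30). Col14a1, a related regulator of fibril width, had 7.05, 27.7 and 16.5 FPKM against 19.1, 26.7 and 26.0 FPKM, with a fitted log2 fold change of 0.63 (SE 0.44). In both the groups overlapped only through NC 2. Without NC 1 the values were 0.35 for Col12a1 and 0.14 for Col14a1, and without NC 2 they were 0.90 and 1.06. Col16a1 had 11.7, 21.7 and 22.3 FPKM against 17.0, 21.9 and 24.7 FPKM, where NC 1 was lowest and the groups overlapped. Its log2 fold change of 0.22 (SE 0.27) turned to -0.07 without NC 1. Col20a1 and Col9a3 had means of 0.80 and 0.53 FPKM and log2 fold changes of -0.03 and 0.06, and the first of these was 0.01 after rescaling to equal sums. Col9a1 and Col9a2, partners of type II collagen in cartilage, Col19a1, and Col22a1, which marks tissue junctions such as that of muscle and tendon, did not exceed 0.32 FPKM.

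The 4 type VI chains tested had higher means under the SFRP2-siRNA label. Over all 6 chains the summed FPKM was 149, 228 and 168 in NC 1, 2 and 3 and 274, 237 and 232 in SFRP2-siRNA 1, 2 and 3, a ratio of means of 1.36 with an exact permutation p of 0.1, and the groups overlapped with median-of-ratios scaling. Col6a1 had 77.0, 117 and 92.7 FPKM in NC and 145, 126 and 122 FPKM in SFRP2-siRNA, a log2 fold change of 0.47 (SE 0.20, unadjusted limma p 0.0537). Col6a2 had 48.2, 60.1 and 49.6 FPKM against 76.6, 69.8 and 67.7 FPKM, and the log2 fold change was 0.44 (SE 0.15, unadjusted limma p 0.0259). The groups were apart in both.

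Col6a3, the long chain that joins them, had 22.6, 50.2 and 24.4 FPKM in NC and 50.0, 40.6 and 40.4 FPKM in SFRP2-siRNA. NC 2 was the highest of all libraries, so the groups overlapped and the log2 fold change of 0.50 had an SE of 0.31. Col6a6, an alternative to that chain, had 0.69, 0.78 and 0.87 FPKM against 0.95, 1.19 and 1.33 FPKM, which gave a log2 fold change of 0.27 (SE 0.12), on 277 to 574 reads. Col6a5 and Col6a4 stayed below the filter, with up to 0.43 and 0.13 FPKM.

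Collagens of the epidermal junction come from keratinocytes for the most part. Col17a1, the transmembrane collagen of hemidesmosomes, had 38.3, 47.3 and 68.1 FPKM in NC and 83.8, 52.6 and 56.5 FPKM in SFRP2-siRNA, a log2 fold change of 0.33 (SE 0.27). Col7a1, the anchoring fibril chain, had means of 7.88 ± 0.50 and 10.01 ± 4.12 FPKM (SD, n = 3 each), and 14.7 FPKM in SFRP2-siRNA 1 alone set the wide spread. The summed FPKM of 6 basal keratinocyte markers was also highest in SFRP2-siRNA 1, at 6237, against 2789.8 to 5137 in the other libraries. The part of keratinocyte content in these 2 collagens was not tested.

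Col23a1, a transmembrane collagen, had the smallest unadjusted limma p of all members, 0.0154. It had 2.80, 2.87 and 2.67 FPKM in NC and 5.98, 3.83 and 3.92 FPKM in SFRP2-siRNA, a log2 fold change of 0.54 (SE 0.17). The NC libraries lay close together, and all 3 were below the SFRP2-siRNA libraries. Of the other transmembrane chains, Col13a1 had a mean of 0.62 FPKM and a log2 fold change of -0.08, and Col25a1 did not exceed 0.06 FPKM.

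The multiplexins Col18a1, the source of endostatin, and Col15a1 lie in the basement membrane zone and differed little. Their means were 27.4 ± 4.94 and 26.8 ± 1.70 FPKM for Col18a1 and 20.2 ± 2.17 and 20.9 ± 3.17 FPKM for Col15a1 (SD, n = 3 each), and the sign of either difference changed between scalings. Col8a1 and Col8a2, short-chain network collagens of vessel walls and the cornea, had log2 fold changes of 0.44 (SE 0.25) and 0.22 (SE 0.19). Col28a1, found around peripheral nerve, had a log2 fold change of 0.20 (SE 0.17). Col10a1 of growth plate cartilage and Col26a1 did not exceed 0.08 and 0.31 FPKM. The 12 members below the filter rested on 2 to 362 reads a library, and their groups overlapped.

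Chain ratios within a library do not change with its scaling and were compared for 7 pairs. The ratio of Col1a1 to Col1a2 was 2.90, 2.22 and 1.89 in NC 1, 2 and 3 and 2.32, 2.09 and 2.25 in SFRP2-siRNA 1, 2 and 3. It differed by -0.055 on the log2 scale, with an exact permutation p of 0.9. The ratio of Col3a1 to Col1a1 was 0.68, 1.14 and 1.42 against 0.99, 1.17 and 1.12, a difference of 0.075 with an exact permutation p of 0.9. In both ratios NC 1 and NC 3 lay at opposite ends and all 3 SFRP2-siRNA libraries between them. FPKM divides by an annotated gene length, so the size of a ratio depends on that length while its difference between libraries does not.

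The other 5 ratios differed by less than their spread. Differences on the log2 scale were -0.056 for Col5a1 to Col5a2, 0.071 for Col4a1 to Col4a2, 0.030 for Col6a1 to Col6a2, 0.047 for Col6a3 to Col6a1 and -0.29 for Col12a1 to Col1a1. All 7 pairs overlapped between the groups, and their exact permutation p-values ran from 0.4 to 0.9, or 0.9 after Benjamini-Hochberg adjustment over the 7. With 3 libraries a group this does not show that the ratios were equal. The ratio of Col4a1 to Col4a2 was the steadiest, from 1.09 to 1.22 over the 6 libraries, and SDs on the log2 scale were 0.092 in NC and 0.047 in SFRP2-siRNA. For the ratio of Col3a1 to Col1a1 they were 0.55 and 0.13.

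**Figure D3:**
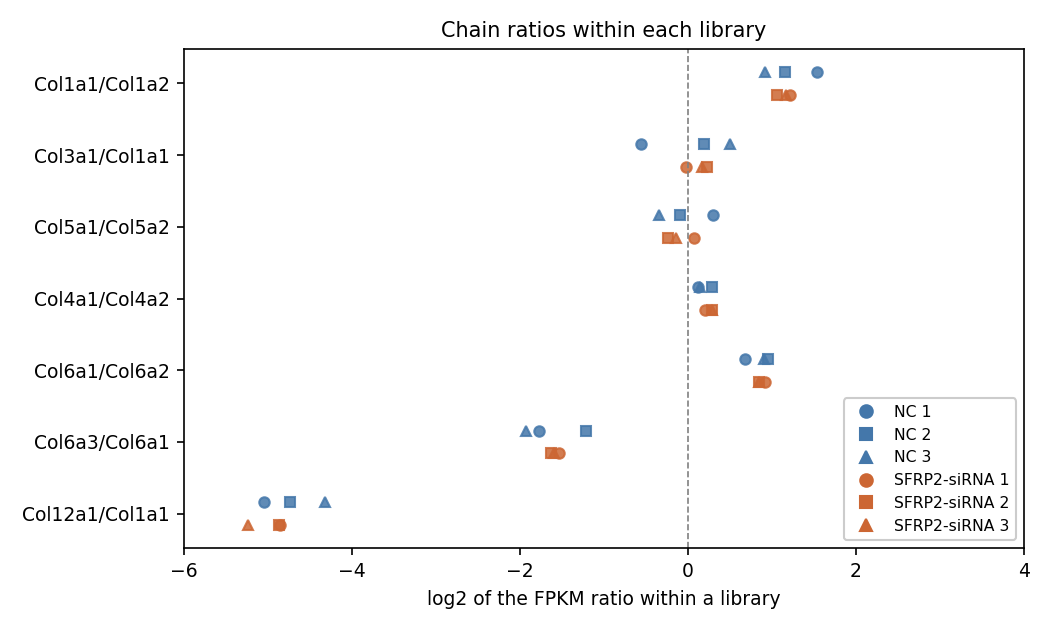
Log2 of the FPKM ratio of 7 pairs of collagen chains within each library, NC above and SFRP2-siRNA below in each row. The groups overlapped in every pair, and NC was spread more widely than SFRP2-siRNA, as in Col3a1/Col1a1 with log2 values from -0.56 to 0.51 in NC.

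Genes that make collagen ready for assembly were grouped by their role, to be read against the shares of all genes given above for the same counts. Of all genes tested, 71.8% had a log2 fold change above 0. Of 14 tested genes for hydroxylation of prolines and lysines, 14 did, 6 were higher at an unadjusted limma p under 0.05, and the groups were apart for 6, with a median of 0.43. Groups apart in this and the following lists were counted for FPKM as deposited. In all 6 genes counted, P4hb, P3h3, P3h4, Crtap, Ppib and Colgalt1, the groups overlapped with median-of-ratios scaling. With median-of-ratios scaling the median of the hydroxylation genes was 0.27. P4hb, a subunit of prolyl 4-hydroxylase, had 143, 223 and 199.7 FPKM in NC and 286, 264 and 235 FPKM in SFRP2-siRNA. Crtap, which acts in prolyl 3-hydroxylation, had log2 fold change 0.31 (SE 0.16). P3h3 and P4ha3, 2 further genes of the hydroxylation list, had log2 fold changes of 0.73 (SE 0.24) and 0.80 (SE 0.30).

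For folding and export, all 10 tested genes had a log2 fold change above 0, against 71.8% of all genes, with a median of 0.43, 1 at an unadjusted limma p under 0.05 and 2 with groups apart. These 2, Mia3 and Kdelr2, overlapped with median-of-ratios scaling. Serpinh1, the collagen chaperone Hsp47, had 177, 341 and 171 FPKM in NC and 315, 304 and 275 FPKM in SFRP2-siRNA, and NC 2 was the highest library. Sparc, a collagen-binding matrix protein, had means of 570.1 ± 117 and 778 ± 86.4 FPKM (SD, n = 3 each). Fkbp10 and Fkbp14, prolyl isomerases of the endoplasmic reticulum, had log2 fold changes of 0.68 (SE 0.29) and 0.55 (SE 0.22).

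For cleavage of propeptides, 5 of 6 tested genes had groups apart, 3 were higher at an unadjusted limma p under 0.05, and the median was 0.56. With median-of-ratios scaling the median was 0.42. The groups then overlapped in Bmp1, Adamts2, Adamts14 and Pcolce, and of the 5 genes only Pcolce2 stayed apart. Bmp1, which removes the C-terminal propeptide, had 17.0, 29.0 and 19.6 FPKM in NC and 35.7, 33.4 and 31.0 FPKM in SFRP2-siRNA. Adamts2, which removes the N-terminal one, had 9.20, 18.0 and 14.0 FPKM against 22.4, 21.2 and 19.7 FPKM, and Pcolce, the enhancer of Bmp1, had a log2 fold change of 0.43 (SE 0.20). Of 10 tested genes for collagen receptors and uptake, 8 had a log2 fold change above 0, near the share of all genes, 1 was higher at an unadjusted limma p under 0.05 and had groups apart, and the median was 0.38, or 0.14 without NC 1. That gene was Ctsk, a collagen-cleaving cathepsin, with 32.7, 60.9 and 56.5 FPKM in NC and 107, 81.8 and 71.2 FPKM in SFRP2-siRNA. Itgb1, the beta chain of collagen-binding integrins, and Mrc2, which takes up collagen fragments, had log2 fold changes of 0.45 (SE 0.24) and 0.55 (SE 0.24). With median-of-ratios scaling the medians were 0.27 for folding and export and 0.25 for receptors and uptake. No gene of the 4 lists passed the adjusted threshold.

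**Figure D4:**
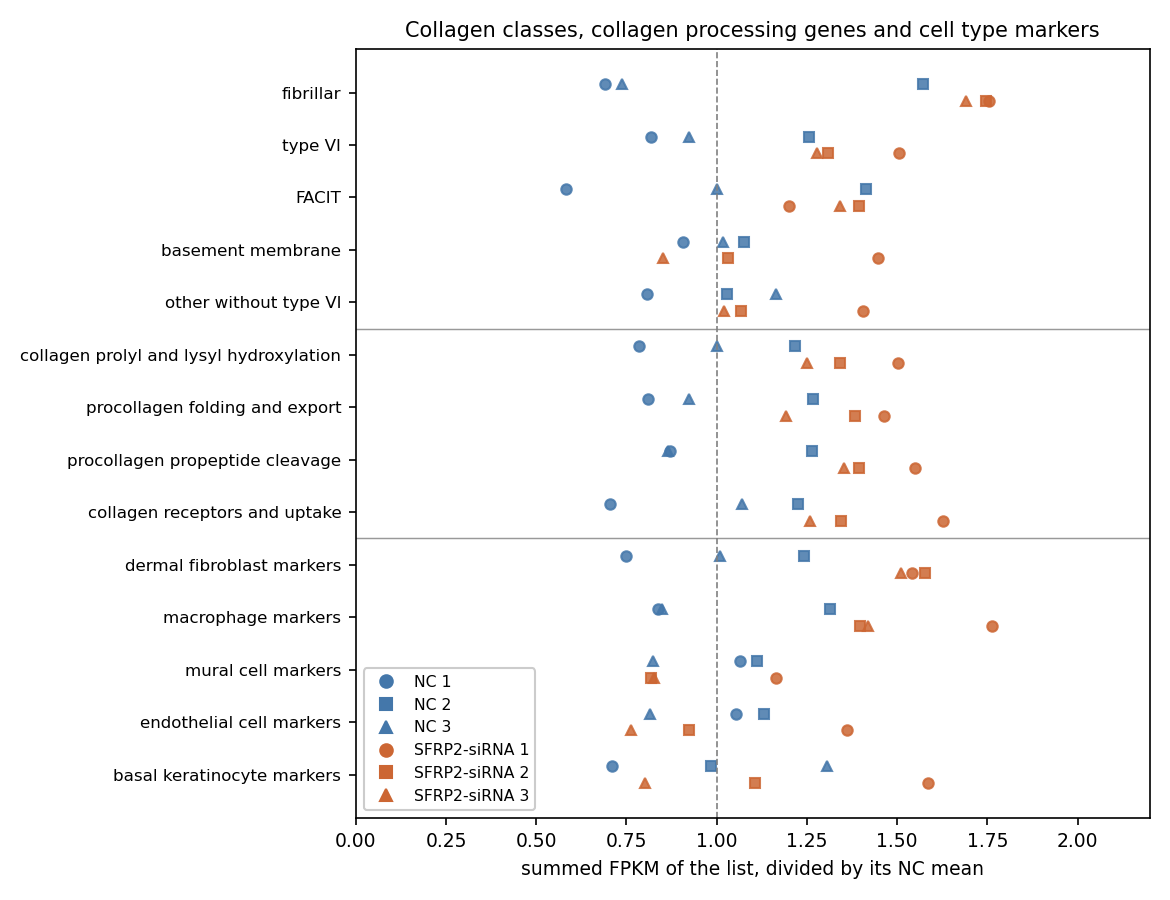
Summed FPKM of collagen classes, collagen processing lists and cell type marker lists in each library, divided by the NC mean of the list (dashed line at 1). Fibrillar and type VI collagens and both dermal fibroblast and macrophage markers had SFRP2-siRNA libraries above all NC libraries. So did the hydroxylation, propeptide cleavage and receptor lists. All sums shown are of FPKM as deposited. With median-of-ratios scaling these lists overlapped between the groups, except for the dermal fibroblast markers. Type IV collagens and endothelial markers were spread around 1 in both groups.

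All 8 dermal fibroblast markers had a log2 fold change above 0, against 71.8% of all genes, with a median of 0.59, and the groups were apart in 5, against 13.9% of all genes. Of these 5, Dpt overlapped with median-of-ratios scaling. They summed to 268, 445 and 361 FPKM in NC 1, 2 and 3 and 551, 564 and 540.4 FPKM in SFRP2-siRNA 1, 2 and 3. Dcn, decorin of the collagen fibril surface, had 72.5, 101 and 93.8 FPKM against 156, 152 and 138 FPKM, and Dpt, dermatopontin, had 69.96, 144 and 114 FPKM against 143.9, 161 and 167 FPKM. The ratio of summed fibrillar to summed fibroblast marker FPKM was 2.98, 4.08 and 2.35 in NC and 3.68, 3.57 and 3.61 in SFRP2-siRNA. The range in NC thus enclosed that of the other group. This ratio was chosen after the values were seen and has no test, and the part of fibroblast content in the collagen levels was not tested.

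Other markers went several ways. Macrophage markers summed to 550.4, 863 and 556 FPKM in NC and 1158, 917 and 932 FPKM in SFRP2-siRNA, so the groups were apart in these sums, as for the fibroblast markers. With median-of-ratios scaling the macrophage sums overlapped through NC 2, while the fibroblast sums stayed apart. Singly, 2 of 8 macrophage markers had groups apart, against 13.9% of all genes. C1qa and C1qb led the list with means of 142 and 192 FPKM in NC. Endothelial markers, led by Cdh5 and Pecam1, ran from 78.2 to 109 FPKM and from 73.1 to 131 FPKM, and mural markers, led by Rgs5 and Pdgfrb, from 69.6 to 94.0 and from 69.3 to 98.4 FPKM. SFRP2-siRNA 1 was the highest library and SFRP2-siRNA 3 the lowest in endothelial markers, as in Col4a1 and Col4a2. The same libraries were the extremes in adipocyte markers, and the libraries between them were ordered differently in endothelial markers and these collagens. The ratio of summed type IV to summed endothelial marker FPKM was 1.78, 1.97 and 2.59 in NC and 2.201, 2.32 and 2.32 in SFRP2-siRNA, given without a test.

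The summed levels of 5 further marker lists overlapped between the groups. Skeletal muscle markers, led by Acta1 and Mylpf, ran from 3431 to 6923 FPKM in NC and from 4509 to 13223 FPKM in SFRP2-siRNA. Adipocyte markers, led by Fabp4 and Adipoq, ran from 1663 to 2072 FPKM and from 872 to 2318 FPKM. Basal keratinocyte markers were led by Krt14 and Krt5. Hair follicle markers, led by Krt31 and Krt86, were at 5.78 FPKM in SFRP2-siRNA 1 against 296 to 1122 FPKM in the other 5 libraries. The cartilage markers summed to less than 1 FPKM in every library, with Acan and Cnmd highest at means of 0.32 and 0.35 FPKM in NC.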

How the data were processed

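RNA of 6 wound tissue samples from db/db mice, each taken as 1 animal, was measured by paired-end mRNA sequencing. The authors deposited FPKM values per Ensembl gene ID, and their processing notes name HISAT2, featureCounts and Subread without versions; the genome build and annotation are not given in the sources used here. Symbols and biotypes came from gene name tables and GENCODE M21, which matched 32582 of 33184 IDs. With GENCODE M21 lengths, values in all libraries were whole reads (within 0.05) for 98.3% of these genes, which implied 42.9 M to 47.1 M reads a library (M, mega). Reads of Col5a1, Col13a1 and Col25a1 did not come out whole with that length. FPKM values are not counts, so limma 3.58.1 in R 4.3.3 (lmFit, eBayes with an intensity trend, two-sided) was fitted to log2(FPKM + 1) for 16005 genes whose mean reached 0.5 FPKM, with Benjamini-Hochberg adjustment. DESeq2, which the study used, was not run. Scripts were tested on simulated data. Libraries of a group differed far beyond counting noise (median chi-square per gene 7.68 to 22.5), so none was a duplicate. Collagen classes, the processing lists and the marker lists were written with earlier results of these data known. By rule, values in full were given for the 3 most abundant and the 3 members of smallest p in each class and for the chains in the ratios, and for the genes other lists led with by level or p; further values were added after they were seen. Alternatives changed the pseudocount to 0.1, the filter (none, or 2 FPKM) or the scaling (equal sums, median of ratios), or used no intensity trend, a replicate block, sample weights, each library left out and, added after seeing the data, limma voom on the recovered reads. Of the hair follicle markers, Krt85 was not analysed here. The result of 1 further marker list is not reported here.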

Additional observations from a re-analysis of the deposited data

How the results depend on the processing

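No alternative called a collagen gene, and the smallest adjusted limma p of any member over all of them was 0.253, with sample weights. Of 254 alternative values for the 17 members given in full, 244 kept their sign and side of the threshold and 10, in 4 members, changed sign. At an unadjusted limma p under 0.05, median-of-ratios scaling gave 1 higher member, sample weights 9, and leaving out 1 library 1 to 14 higher and 0 to 1 lower. Replicate numbers did not pair the libraries (correlations of deviations -0.05, -0.15 and 0.38); with the number as a replicate block 8 members were higher and 1 lower. Members with groups apart were 3 higher with median-of-ratios scaling and 8 to 17 higher and 0 to 1 lower with 1 library left out, and the count of 17 was without NC 2. The median log2 fold change of all members was 0.14 with no filter and 0.46 with voom, beside 0.03 and 0.16 for all genes tested. It was 0.58 for FACITs with the filter at 2 FPKM and 0.01 to 0.37 with 1 library left out, and for the other class 0.42 with a pseudocount of 0.1, 0.44 with the filter at 2 FPKM and 0.45 with voom. The type IV difference in summed FPKM was -1.04 with median-of-ratios scaling and -11.6 to 47.7 with 1 library left out. Leaving out 1 library gave log2 ratio differences of -0.20 to 0.11 for Col1a1 to Col1a2, -0.23 to 0.30 for Col3a1 to Col1a1, -0.21 to 0.12 for Col5a1 to Col5a2, -0.055 to 0.087 for Col6a1 to Col6a2 and -0.10 to 0.26 for Col6a3 to Col6a1. For single genes it gave log2 fold changes of -0.067 to 0.37 for Col16a1, 0.14 to 1.06 for Col14a1, 0.35 to 0.90 for Col12a1, 0.13 to 0.55 for Col17a1, 0.30 to 0.86 for Col6a3, -0.052 to 0.32 for Col4a1, -0.15 to 0.27 for Col4a2 and -0.19 to 0.067 for Col4a5. With median-of-ratios scaling Col4a1 was at -0.013 and Col4a2 at -0.083, with sample weights Col4a2 was at -0.031, and with equal sums Col4a5 was at 0.015. The causes of these shifts were not tested.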
